A study of Homo sapiens with 14 samples.

Results

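The 34 genes described here build, license and count centrosomes, and were chosen by name as the core set for centriole duplication, centriole length, pericentriolar material, satellites and appendages, spindle pole clustering and the PIDDosome. All 34 were measured, among 18398 genes in all. In ovarian carcinoma cells growing in a CDK2 inhibitor, 1 of them, CEP97, which caps the growing end of the centriole, was higher than in parental cells past the threshold, by 0.53 on the log2 scale. Over all genes 6.92% passed in that comparison (5.03% of all genes were higher), so the share in the set was not above the background. After inhibitor withdrawal none of the 34 passed against parental cells, as 0.00544% of all genes did.

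The centrosome is a pair of centrioles embedded in pericentriolar material that nucleates microtubules. Centrioles are copied once per cell cycle. CDK2 with cyclin E licenses that step, and the kinase PLK4 starts it by recruiting STIL and SASS6 to the wall of the parent centriole. Cells that fail cytokinesis become polyploid and carry extra centrosomes. Mature extra centrioles bring PIDD1 together with the adaptor CRADD and the protease caspase-2, the PIDDosome, which cleaves MDM2 and so leads to induction of the cell cycle inhibitor CDKN1A. These statements are background. Centrosome number and ploidy were not measured on these arrays.

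The OVCAR-3 line is established and comes from a human ovarian carcinoma. Total RNA was measured on 14 Affymetrix whole-transcript arrays, and the deposited values were taken as log2 signal. Parental cells grown in medium with 0 µM inhibitor gave 4 arrays. Sublines R1, R3, R5, R6 and R7, derived separately for resistance to the CDK2 inhibitor PHA-533533, gave 5 arrays at passage 5 in 4 µM inhibitor, here called selected, and 5 arrays at passage 10 or later in 0 µM, here called stable. All cells grew in RPMI medium with fetal calf serum, and the labels do not say whether a subline is a clone. Inhibitor and passage changed together and cannot be told apart. In RNA of whole cultures, a change in all cells and a change in the share of cells cannot be told apart either. Each subline has 1 array per condition. Whether the 4 parental replicates were separate cultures is not stated, and p-values against them cover only the spread of those samples, which may be technical.

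Of 13 markers of ovarian carcinoma epithelium, 12 lay above the background measure on all 14 arrays, and ESR1 on none. That measure is the 95th percentile of 337 olfactory receptor genes on the same array, which most tissues do not express. Of 8 fibroblast markers 1 (COL1A1) lay above it on all arrays and 5 on none. Of 7 leukocyte markers 1 (NKG7) lay above it on all arrays and 4 on none, and all 5 endothelial markers lay above it on none. Among the 34 centrosome and PIDDosome genes 22 lay above it on all arrays and 10 on some. CETN3 and CEP250 lay above it on no array, so their differences are between values in the background range.

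Promoter windows from RefSeq (GRCh38.p14), each running from 250 bases before to 50 after a gene's start, were used for 30 of the 34 genes. CETN3, TUBGCP4, PCM1 and CEP250 had none among the windows used, which does not mean that RefSeq lacks a start for them. They are shown for CEP97, the gene that passed the test, and for the duplication genes PLK4 and SASS6. Letters were searched on both strands for 3 elements of cell cycle promoters: the CHR (TTTGAA or TTCGAA), E2F sites (GGCGGGAA, TTTGGCGC, TTTCCCGC or TTTGCCGC, of which GGCGGGAA and the reverse of TTTCCCGC can overlap) and the NF-Y box CCAAT. Capitals mark matches, and all 3 windows read 5′ to 3′ along the gene. CEP97 spans chr3:101724364-101724663 on the plus strand, PLK4 (the most upstream of its 3 windows) chr4:127880643-127880942 on the plus strand and SASS6 chr1:100132881-100133180 on the minus strand.
CEP97: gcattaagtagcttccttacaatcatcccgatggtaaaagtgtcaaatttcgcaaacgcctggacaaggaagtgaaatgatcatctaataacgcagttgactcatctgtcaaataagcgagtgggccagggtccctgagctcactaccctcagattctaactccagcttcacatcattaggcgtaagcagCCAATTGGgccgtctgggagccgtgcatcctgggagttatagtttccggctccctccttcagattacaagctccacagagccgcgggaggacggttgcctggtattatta
PLK4: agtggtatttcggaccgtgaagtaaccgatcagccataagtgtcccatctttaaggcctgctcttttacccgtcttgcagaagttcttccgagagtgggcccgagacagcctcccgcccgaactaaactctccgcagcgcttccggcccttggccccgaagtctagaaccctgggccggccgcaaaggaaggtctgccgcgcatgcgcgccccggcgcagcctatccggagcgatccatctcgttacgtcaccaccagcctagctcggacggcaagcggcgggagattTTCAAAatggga
SASS6: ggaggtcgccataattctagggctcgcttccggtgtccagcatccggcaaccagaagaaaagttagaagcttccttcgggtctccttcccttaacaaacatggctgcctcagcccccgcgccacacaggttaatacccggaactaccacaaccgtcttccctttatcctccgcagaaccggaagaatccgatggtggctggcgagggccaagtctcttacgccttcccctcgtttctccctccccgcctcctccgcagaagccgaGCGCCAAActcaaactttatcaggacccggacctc

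CEP97 carries only NF-Y letters of the 3 elements, while SASS6 has E2F letters and this PLK4 window has CHR letters. Over the set, E2F letters were in 10 of the 30 genes with a window (33.3%), against 6.2% of 27305 genes and 5.1% of 35116 windows. Both totals count only the windows used, which leave out a whole chromosome and so are not all of RefSeq. CHR letters were in 13 (43.3%), against 19.5% of genes and 16.4% of windows. CCAAT was in 15 (50.0%), against 39.7% of genes and 34.6% of windows. The 27305 genes were not limited to those measured on the arrays. A gene counted when any of its windows matched, and the number of windows per gene was not matched between the set and all genes. These matches are descriptions of letters, and no binding was measured.

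Among the genes of centriole duplication, none of 11 passed the limma test between selected and parental cells, and 6 had an unadjusted p under 0.05, all higher in selected cells. Their median difference was 0.29 on the log2 scale, against -0.01 over all genes tested. Background shares for this comparison were 6.92% of all genes called in either direction, 5.03% called higher and 1.89% lower, and 20.3% with an unadjusted p under 0.05 (14.1% higher).

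PLK4, the kinase that starts duplication, had log2 signals of 9.75, 9.84, 9.58 and 9.58 in parental replicates 1 to 4. In selected R1, R3, R5, R6 and R7 it read 10.03, 9.04, 9.59, 9.49 and 9.81, and in stable cells of the same sublines 10.01, 9.88, 9.47, 9.44 and 9.50. The 3 groups overlap, and selected R3 is the lowest of all arrays. The difference of selected from parental was -0.09 (SE 0.16, adjusted p = 0.828), with a 95% interval from -0.45 to 0.26, and that of stable from parental -0.02, with an interval from -0.31 to 0.26. PLK4 had the widest spread of any of the 34 genes among selected arrays (SD 0.37, n = 5).

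STIL, which PLK4 phosphorylates and which carries SASS6 to the new centriole, read 10.02, 10.31, 9.56 and 10.19 in parental cells. It read 10.47, 10.25, 10.32, 10.16 and 10.54 in selected R1, R3, R5, R6 and R7, and 10.36, 10.33, 10.07, 10.09 and 9.86 in the stable arrays. Parental 3 alone lies below every other array, and the groups overlap. The difference of selected from parental was 0.33 (SE 0.14, adjusted p = 0.205).

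SASS6, whose protein forms the cartwheel of the new centriole, read 9.65, 9.69, 9.46 and 9.45 in parental cells. In selected cells in the order R1 to R7 it read 10.13, 9.84, 9.88, 9.59 and 10.09, and in stable cells 9.71, 9.86, 9.47, 9.67 and 9.47. All selected arrays except R6 lie above the 4 parental arrays. SASS6 was 0.35 higher in selected than in parental cells (SE 0.11, adjusted p = 0.0909) and 0.27 higher than in stable cells (SE 0.11, adjusted p = 0.264), and neither passed.

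CEP192 and CEP152 are the scaffolds that bring PLK4 to the parent centriole. CEP192 read 9.55, 9.91, 9.13 and 9.65 in parental cells, 10.17, 9.98, 9.84, 9.79 and 10.04 in selected cells and 9.96, 9.55, 9.80, 9.70 and 9.61 in stable cells. In each subline the selected array was the higher one, although the groups overlap. CEP192 differed by 0.40 between selected and parental cells (SE 0.14, adjusted p = 0.111) and CEP152 by 0.33 (SE 0.12, adjusted p = 0.120).

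CEP57, which helps to place CEP152 and CEP63 around the centriole, read 8.31, 8.58, 8.41 and 8.36 in parental cells. Selected arrays read 8.65, 8.80, 8.53, 8.82 and 8.98, of which only R5 falls within the parental range. Stable arrays were spread more widely, at 9.14, 8.79, 8.59, 8.37 and 8.20. The difference of selected from parental was 0.34 (SE 0.10, adjusted p = 0.0611). Of the rest, CEP135, a cartwheel-wall protein, differed by 0.29 (adjusted p = 0.148). CNTROB, CPAP (the gene earlier called CENPJ, which adds tubulin to the centriole wall), CEP63 and CEP120 differed by 0.16, 0.08, 0.04 and -0.04, with adjusted p of 0.458 or more.

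CEP97 acts with CCP110 as a cap that stops centriole elongation. It was the 1 gene of the 34 that rose past the threshold in selected against parental cells. The 4 parental arrays read 8.84, 8.99, 8.53 and 8.69 and selected R1, R3, R5, R6 and R7 read 9.02, 9.30, 9.42, 9.24 and 9.47, so that the groups do not overlap. Stable cells of the same sublines read 9.12, 8.85, 9.15, 8.97 and 8.87 and overlap both other groups.

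CEP97 averaged 8.76 ± 0.20 in parental cells (SD, n = 4). It averaged 9.29 ± 0.17 in selected cells and 8.99 ± 0.14 in stable cells (SD, n = 5 each). The rise in selected over parental cells was 0.53 (SE 0.11, 95% interval 0.28 to 0.77, adjusted p = 0.0181). This call was kept in 15 of 18 alternatives (adjusted p between 0.00609 and 0.0674). It was lost without parental replicate 4 (0.50, adjusted p = 0.0674) and without selected R7 (0.49, adjusted p = 0.0527), and leaving out both R7 arrays gives the same fit as the latter. In stable cells CEP97 differed from parental by 0.23 (SE 0.11, interval -0.006 to 0.46, adjusted p = 0.832). The selected arrays exceeded the stable ones by 0.30 (SE 0.10, adjusted p = 0.146), and were the higher in every subline except R1.

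CCP110, the partner of CEP97, differed by 0.32 between selected and parental cells (adjusted p = 0.188). CEP76, which keeps centrioles from being copied again, differed by -0.01 (adjusted p = 0.964). The centrins are small calcium-binding proteins of the centriole lumen. CETN3 ranged over 5.35 to 5.80 on parental arrays, 5.57 to 6.34 on selected arrays and 5.25 to 6.01 on stable arrays, a difference of 0.38 for selected against parental (adjusted p = 0.218). CETN2 went the other way, with -0.16 against parental (adjusted p = 0.380) and -0.24 against stable cells (SE 0.10, adjusted p = 0.284).

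**Figure D1:**
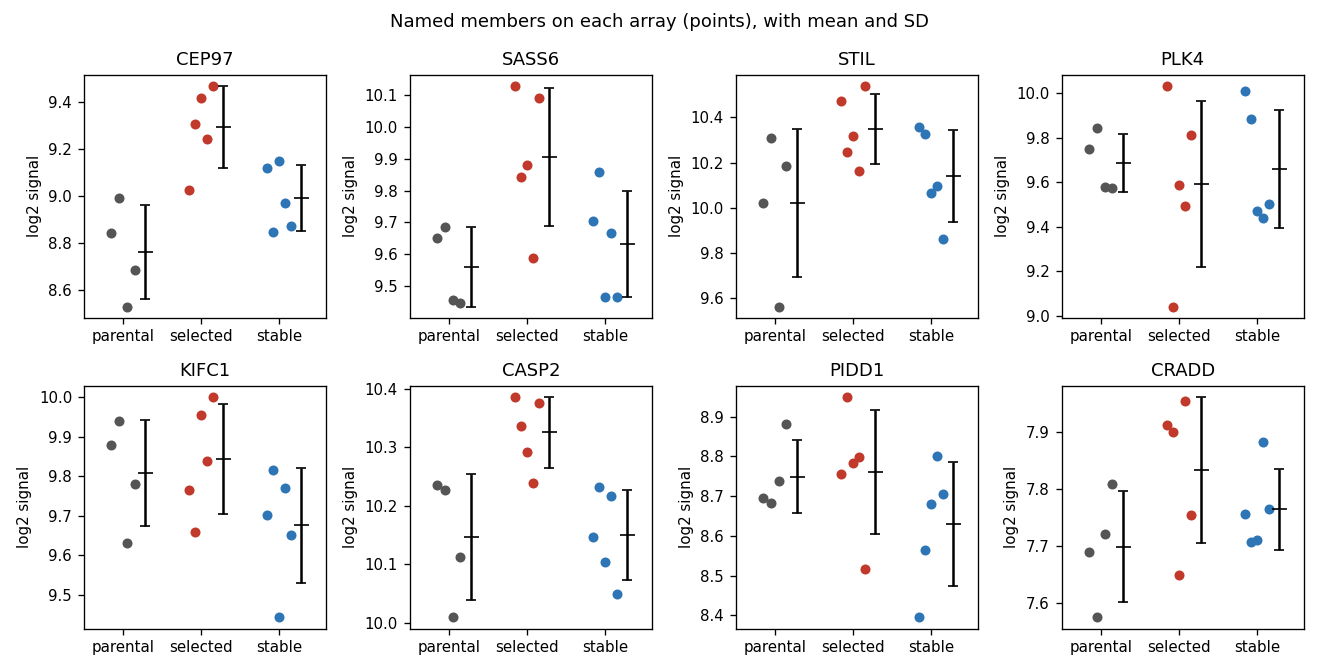
Log2 signal (vertical axes, each with its own range) of CEP97, SASS6, STIL, PLK4, KIFC1, CASP2, PIDD1 and CRADD on each array, with points in the order of replicate or subline and bars for the mean and SD of 4 parental, 5 selected and 5 stable arrays. For CEP97 and CASP2 the selected points all lie above the parental ones, and the selected R3 point of PLK4 lies at 9.04, below all others of that gene.

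The pericentriolar material surrounds the centrioles and holds the γ-tubulin ring complexes. None of its 7 genes passed between selected and parental cells by limma, and 1 had an unadjusted p under 0.05. That gene was TUBGCP2, a core subunit of the ring complex. It read 9.49, 9.60, 9.32 and 9.60 in parental cells, 9.30, 9.25, 9.13, 9.11 and 9.25 in selected cells and 9.37, 9.64, 9.12, 9.07 and 9.13 in stable cells. All selected arrays lie below all parental ones. Selected cells differed from parental by -0.29 (SE 0.08, interval -0.47 to -0.11, adjusted p = 0.0525). Stable cells differed by -0.24 (SE 0.12, adjusted p = 0.869).

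The other subunits did not share the sign of TUBGCP2 throughout. TUBGCP3 and TUBGCP4 differed by 0.10 and 0.09 between selected and parental cells, and γ-tubulin itself, TUBG1, by -0.009 (adjusted p = 0.979). NEDD1, which attaches the ring complex to the centrosome, differed by 0.21 (adjusted p = 0.336). The scaffold proteins PCNT and CDK5RAP2 differed by 0.07 (adjusted p = 0.831) and 0.09 (adjusted p = 0.769).

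Satellites, appendages and the linker between centrioles were represented by 6 genes, of which none passed by limma and 2 had an unadjusted p under 0.05 between selected and parental cells, both higher. OFD1, a satellite and distal centriole protein, ranged over 7.38 to 8.17 on parental arrays, 8.11 to 8.57 on selected arrays and 7.71 to 8.43 on stable arrays. Its difference was 0.45 (SE 0.15, adjusted p = 0.111). CEP290, of the ciliary transition zone, read 6.85, 7.19, 6.78 and 6.93 in parental, 7.48, 7.10, 6.93, 7.15 and 7.45 in selected and 7.57, 7.29, 7.11, 6.95 and 6.83 in stable cells. The groups overlap, and CEP290 lay above the background measure on 2 arrays. The difference from parental was 0.29 for selected (adjusted p = 0.218) and 0.21 for stable arrays (adjusted p = 0.978). PCM1, the scaffold of the satellites, differed by 0.19 (adjusted p = 0.543), and its stable arrays included both a low R3 at 9.92 and a high R1 at 11.10. The appendage proteins ODF2 and CEP164 and the linker protein CEP250 differed by 0.12, -0.06 and -0.05.

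KIFC1 is a minus-end motor that gathers extra centrosomes into spindle poles, and cells with extra centrosomes are known to depend on it. It read 9.88, 9.94, 9.63 and 9.78 in parental, 9.77, 9.66, 9.96, 9.84 and 10.00 in selected and 9.70, 9.82, 9.44, 9.77 and 9.65 in stable cells, and the groups overlap. Selected and parental cells differed by 0.04 (SE 0.09, interval -0.17 to 0.24, adjusted p = 0.890). Stable and parental cells differed by -0.13 (interval -0.34 to 0.08, adjusted p = 0.990). Of 2 rows for KIFC1 the brighter was used. CEP55, which recruits the abscission machinery at the midbody, differed by 0.09 (SE 0.08, adjusted p = 0.637). In stable cells its R3 array stood at 10.67 while the other 4 lay between 9.77 and 10.09.

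No gene of the PIDDosome passed in any of the 3 comparisons, and 1 of the 3, CASP2, had an unadjusted p under 0.05 by limma between selected and parental cells. PIDD1, the platform protein, read 8.69, 8.68, 8.74 and 8.88 in parental, 8.75, 8.95, 8.78, 8.80 and 8.52 in selected and 8.39, 8.56, 8.68, 8.80 and 8.70 in stable cells. It overlapped between all groups and differed from parental by 0.01 in selected cells (SE 0.09, interval -0.19 to 0.21, adjusted p = 0.967) and by -0.12 after withdrawal (adjusted p = 0.999). CRADD, the adaptor, read 7.69, 7.57, 7.72 and 7.81 in parental, 7.91, 7.90, 7.65, 7.96 and 7.75 in selected and 7.76, 7.71, 7.71, 7.88 and 7.77 in stable cells. Its groups overlap too, and CRADD lay above the background measure on 7 of 14 arrays. The difference from parental was 0.14 for selected (SE 0.08, interval -0.05 to 0.32, adjusted p = 0.442) and 0.07 for stable arrays.

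CASP2 encodes the protease of the complex. It read 10.24, 10.23, 10.01 and 10.11 in parental cells, 10.39, 10.34, 10.29, 10.24 and 10.38 in selected cells and 10.15, 10.23, 10.10, 10.22 and 10.05 in stable cells. Every selected array lies above every parental and every stable array, by a narrow margin. Selected exceeded parental cells by 0.18 (SE 0.07, interval 0.02 to 0.34, adjusted p = 0.184) and stable cells by 0.18 (SE 0.06, adjusted p = 0.188, and 0.203 with subline as a block), without passing. In stable cells the difference from parental was 0.004.

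Across the 34 genes, 1 was called higher in selected than in parental cells and 0 lower by limma, while 13 had an unadjusted p under 0.05 (12 higher, 1 lower). The difference was above 0 for 26 genes (76.5%), against 45.9% of all genes tested, with a median of 0.11 against -0.01. CEP97 and CASP2 lay wholly above the parental range (6.81% of all genes did) and TUBGCP2 wholly below (2.96%). In stable against parental cells 0 genes of the set were called by limma and 0 had an unadjusted p under 0.05, where 0.00544% of all genes were called and 6.09% had such a p. None had stable arrays wholly above or below the parental range, as 0.826% and 1.42% of all genes had. The smallest adjusted p there were those of CEP97, TUBGCP2, CEP290 and KIFC1, between 0.832 and 0.990. The median was 0.06 against -0.004 over all genes, and 24 of the 34 (70.6%) were above 0, against 48.4%. These 2 comparisons share the parental arrays.

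**Figure D2:**
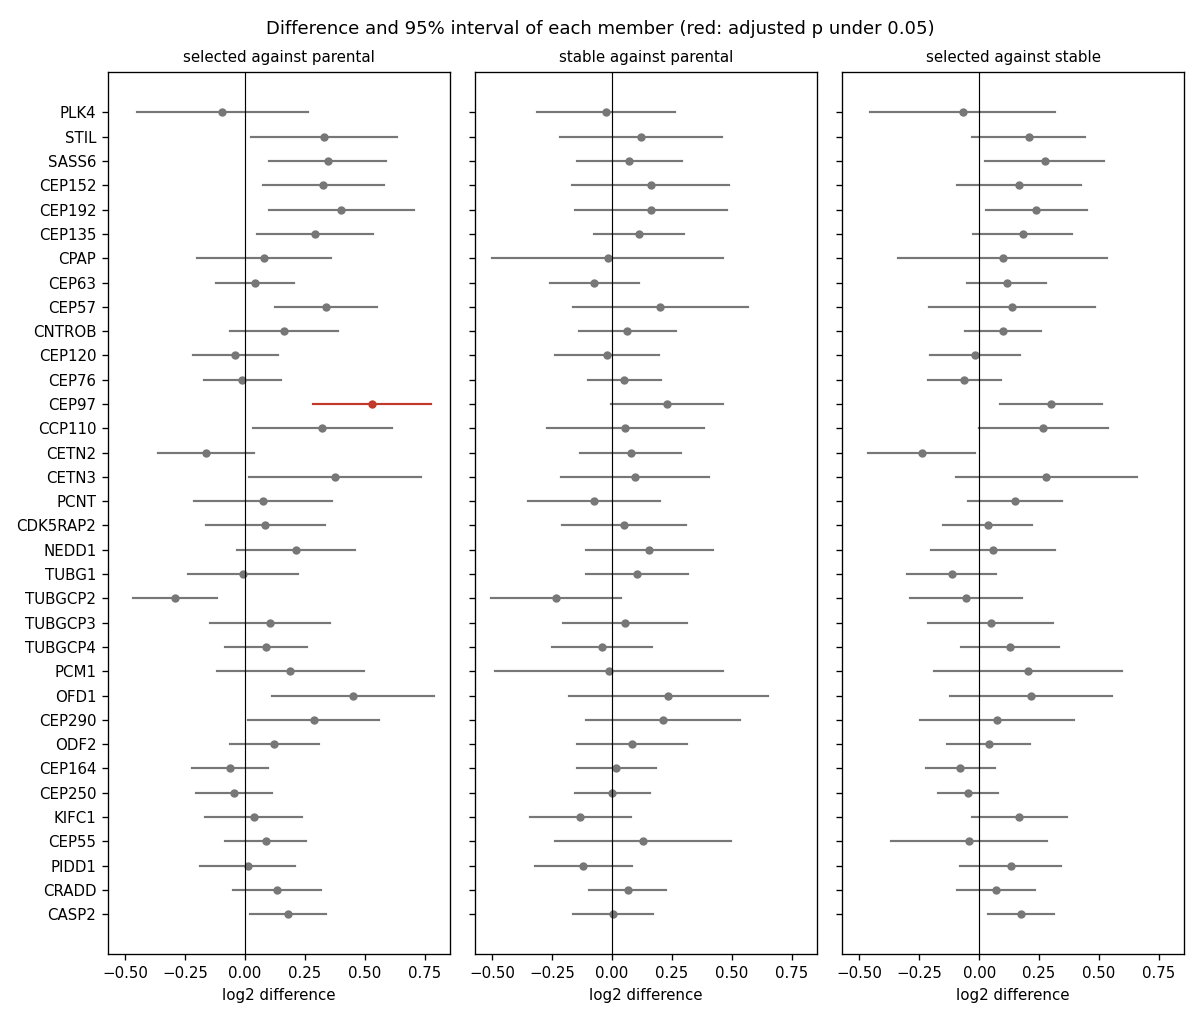
Log2 difference (horizontal axes) with its 95% interval from limma for each of the 34 genes, ordered by role, for selected against parental, stable against parental and selected against stable cells, with red for an adjusted p under 0.05. CEP97 in the comparison of selected with parental cells is the 1 red point, at 0.53.

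Between selected and stable cells of the same sublines 0 of the 34 genes were called by limma, and 6 had an unadjusted p under 0.05, 5 higher in selected cells and CETN2 lower. Of all genes 2.16% were called (1.54% higher, 0.614% lower) and 15.3% had such a p (11.3% higher). With subline as a block 0 were called, where 4.92% of all genes were. CEP192, CCP110 and CASP2 were higher in the selected array of all 5 sublines, which 11.8% of all genes were, and 0 were lower in all 5, which 7.35% were. CASP2 lay wholly above the stable range (2.83% of all genes did) and 0 genes of the set wholly below (1.33%). The median difference was 0.11, against 0.003 over all genes, and 25 of the 34 (73.5%) were above 0, against 50.9%.

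In R7 29 of the 34 genes were higher in the selected array, with a median difference of 0.32 against -0.02 over all genes. In R1, R3, R5 and R6 the numbers were 19, 16, 20 and 21, with medians of 0.04, -0.005, 0.04 and 0.05. Over all genes those medians were 0.02, 0.06, 0.02 and -0.01, so that in R3 the set lay below all genes. R7 had the highest signed value of the 5 paired differences for 23 of the 34 genes, and the largest in size, whichever its sign, for 16. Counts per subline were not taken over all genes, so only the medians have a background value beside them. With both R7 arrays left out, 1 gene of the set had an unadjusted p under 0.05 by limma in place of 6, and 0 were called. Of all 18398 genes 1756 had such a p in that fit, in place of 2809, and 0 were called either. The difference of CEP97 between selected and stable cells was then 0.23 (adjusted p = 0.548).

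Background signal differed most between arrays of the same subline in R7 as well. The olfactory receptor mean there was 6.32 in the selected and 6.69 in the stable array, and the mean of the 34 genes was 9.06 and 8.74. The part of background in the R7 difference was not tested. Among parental arrays, replicate 2 had an olfactory receptor mean of 6.16 and was the highest of its group for 23 of the 34 genes, while replicate 3 had 6.71 and was the lowest for 20. Counts of this kind were not taken over all genes. The olfactory receptor mean averaged 6.42 ± 0.225 (SD, n = 4) over parental arrays. Over selected arrays it averaged 6.34 ± 0.211 (SD, n = 5), and over stable arrays 6.50 ± 0.212 (SD, n = 5). A two-sided exact permutation test gave p = 0.571 for selected cells and p = 0.698 for stable cells, each set against parental, and p = 0.262 between the resistant groups. In each of 5 sublines the selected array had the lower value, and an exact sign-flip test gave p = 0.0625, the minimum for 5 pairs.

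With that background mean added to the fit as a covariate, 7 of the 34 genes passed between selected and parental cells, where 12.6% of all genes did. SASS6, CEP152, CEP192, CEP57, CEP97 and OFD1 were higher and TUBGCP2 lower, and CEP97 stood at 0.52 (adjusted p = 0.0131). Quantile normalization gave 4 of the 34 (SASS6, CEP57, CEP97 and TUBGCP2), where 1716 of all 18398 genes passed. As deposited, under both scalings tried and with the covariate, 25 to 28 of the 34 genes were above 0 in selected against parental cells, 23 to 27 in stable against parental cells and 21 to 25 in selected against stable cells. Of all genes 45.9% to 55.4%, 45.4% to 53.2% and 50.9% to 58.2% were. Between selected and stable cells the covariate gave 21 of the 34 genes, against 58.2% of all genes. The medians there were 0.05 and 0.02, and without the covariate 0.11 and 0.003. The selected array had the lower olfactory receptor mean in all 5 sublines, so this covariate and the growth condition cannot be told apart. The part of background in these differences was not tested.

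**Figure D3:**
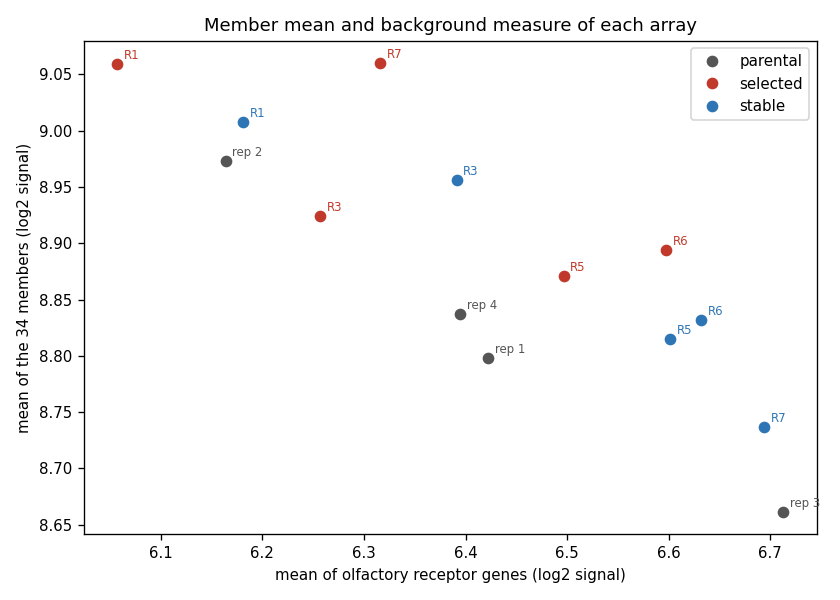
Mean log2 signal of the 34 genes (vertical axis) against the mean of 337 olfactory receptor genes (horizontal axis, log2 signal) for each of 14 arrays, coloured by group and named by parental replicate or subline. The mean of the 34 genes is lowest (8.66) on parental replicate 3, which has the highest background (6.71), and selected R7 and stable R7 lie far apart.

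**Figure D4:**
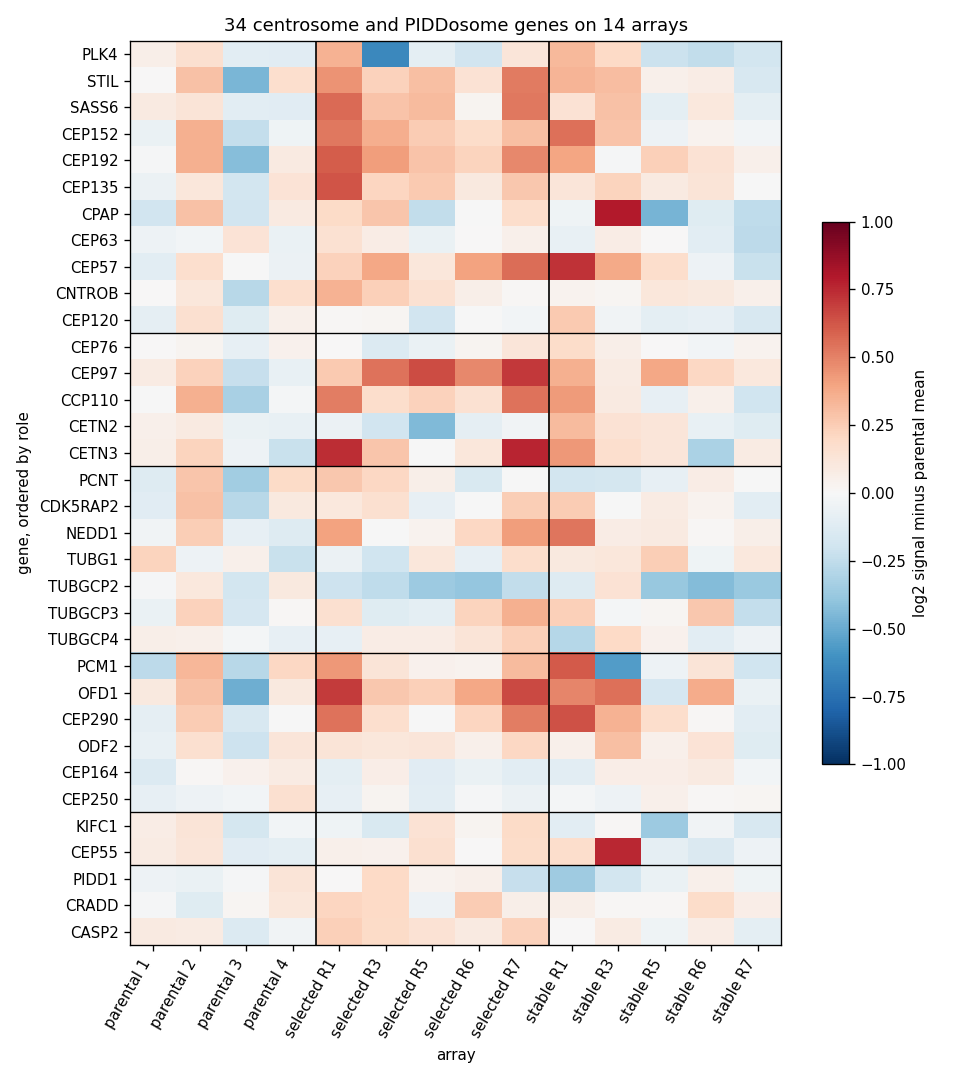
Log2 signal of each of the 34 genes minus its parental mean (colour, red above and blue below) on 14 arrays, with genes ordered by role and lines between groups. Selected R1 and R7 and stable R1 hold many of the raised values, and stable R3 stands out for CPAP (8.39), CEP55 (10.67) and PCM1 (9.92).

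Taking the selected and stable arrays of a subline together against the parental arrays, 0 of the 34 genes were called by limma in any subline. That fit had no term for growth condition, so the difference between the selected and stable array of a subline counts as spread. Over all genes 0.196% were called for R3 and 0.0598% for R5, and 0% for R1, R6 and R7. R1 had 10 genes of the set with an unadjusted p under 0.05, all higher, where 18.8% of all genes had such a p. They were CEP152, CEP192, CEP135, CEP57, CCP110, CETN3, NEDD1, PCM1, OFD1 and CEP290, with differences from 0.37 (CEP135) to 0.59 (CETN3, OFD1 and CEP290), and the lowest adjusted p was 0.159. R1 also had the lowest background of the selected arrays, at 6.06.

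The other sublines had few such genes. In R3 they were CPAP (0.54) and CEP55 (0.40), against 9.31% of all genes, with a lowest adjusted p of 0.321. CPAP read 8.39 in stable R3 and from 7.13 to 7.89 on the other arrays. In R5 they were CEP97 (0.52) and TUBGCP2 (-0.37), against 6.26%, and in R6 TUBGCP2 (-0.41) and CRADD (0.22), against 7.36%. In R7 they were CEP97 (0.41), CETN3 (0.42) and TUBGCP2 (-0.31), against 5.25%. CRADD in R6 read 7.96 (selected) and 7.88 (stable), below the background measure of 8.03 on each of those arrays. TUBGCP2 was thus among the lower genes of R5, R6 and R7, while its stable R3 array, at 9.64, was the highest of all 14. An F test between the 5 sublines, with growth condition in the fit, called 0 of the 34 genes by limma and 0.12% of all genes. CPAP, CEP152 and CETN3 had an unadjusted p under 0.05, as had 15.8% of all genes, and the lowest adjusted p was 0.223. They lay above the background measure on 7, 2 and 0 of 14 arrays.

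Other genes of the same pathways came from 5 further lists. For selected against parental cells 2 of 20 further centriole assembly genes rose and 0 fell, 3 of 18 genes of the pericentriolar material and its mitotic maturation rose and 1 fell, and 0 of 18 appendage and satellite genes passed by limma, 4 having an unadjusted p under 0.05. Of 9 genes around the PIDDosome and centrosome surveillance 2 rose and 0 fell, and of 20 proliferation genes 0 rose and 1 fell. Of all genes 5.03% rose and 1.89% fell in this comparison, and 20.3% had an unadjusted p under 0.05. Medians over these lists were 0.19, 0.09, 0.08, 0.15 and 0.04, against -0.01 over all genes. In stable against parental cells none of their genes passed by limma, and 0, 0, 1, 1 and 2 had an unadjusted p under 0.05, as had 6.09% of all genes.

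USP28, a deubiquitinase needed for the arrest that follows centrosome loss, read 8.49, 8.54, 8.25 and 8.32 in parental cells and 9.22, 9.14, 8.85, 9.19 and 9.45 in selected cells. Stable cells read 9.17, 8.83, 8.55, 8.87 and 8.46. Every selected array lies above every parental one, and the stable arrays run from within the parental range to within the selected range. USP28 rose by 0.77 in selected over parental cells (SE 0.11, adjusted p = 0.00317) in the fit and in all 18 alternatives. It differed by 0.38 in stable against parental cells (adjusted p = 0.663) and by 0.39 in selected against stable cells (adjusted p = 0.188).

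CDKN1A, the cell cycle inhibitor downstream of the PIDDosome, read 7.58, 7.67, 7.71 and 7.77 in parental, 8.74, 8.31, 7.91, 8.15 and 8.25 in selected and 7.51, 7.51, 7.63, 7.72 and 7.77 in stable cells. All selected arrays lie above all others. CDKN1A rose by 0.59 against parental cells (SE 0.14, adjusted p = 0.025) and by 0.64 against stable cells (SE 0.13, adjusted p = 0.0307, and 0.0321 with subline as a block). The first call was kept in 11 of 18 alternatives, being lost without any 1 of the 4 parental arrays and without selected R3 or R7, with adjusted p between 0.0525 and 0.0736. The call against stable cells was kept in 12 of 22. Its losses included those without selected R3 or R7 or stable R3, R5, R6 or R7 (adjusted p between 0.0536 and 0.082). It was also lost with both R7 arrays left out (no block) and with the block and the olfactory covariate together, where no gene was called. CDKN1A lay above the background measure on 8 of 14 arrays.

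Among the mitotic maturation genes, NEK2, a kinase that dissolves the linker between centrosomes, read 8.94, 8.90, 8.78 and 8.62 in parental, 9.35, 9.40, 9.30, 9.34 and 9.49 in selected and 9.08, 9.23, 8.94, 8.86 and 8.60 in stable cells. The selected arrays lie above all others. It rose by 0.57 over parental cells (SE 0.08, adjusted p = 0.00292), in all 18 alternatives. Against stable cells the difference was 0.44 (adjusted p = 0.0581, and 0.0495 with subline as a block). PDE4DIP, a relative of CDK5RAP2 also known as myomegalin, rose by 0.53 over parental cells (SE 0.10, adjusted p = 0.00896), from a range of 9.48 to 9.80 to one of 10.02 to 10.37. Over stable cells it rose by 0.48 (SE 0.11, adjusted p = 0.048, and 0.0396 with subline as a block), a call kept in 7 of 22 alternatives. Losses of that call included those without any 1 selected array, without stable R3, R5, R6 or R7 (adjusted p between 0.0505 and 0.135), and with both R7 arrays left out (0.248). The call was also lost with the block and the olfactory covariate together, where no gene was called. Stable R3 was low at 9.34.

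The augmin subunits HAUS3 and HAUS5, which help to branch spindle microtubules, passed in opposite directions between selected and parental cells. HAUS5 fell by 0.45 (SE 0.10, adjusted p = 0.0198), from a range of 8.92 to 9.09 to one of 8.23 to 8.68, and was not called without parental 1 (adjusted p = 0.0537) or parental 4 (0.0752). HAUS3 rose by 0.41 (SE 0.11, adjusted p = 0.0415). That call was kept in 8 of 17 alternatives. Its losses included those without parental 1, 3 or 4 or selected R1, R3 or R7 (adjusted p between 0.0692 and 0.131). HAUS3 lay above the background measure on 1 array. CEP68, a linker protein, fell by 0.42 in selected against stable cells (SE 0.09, adjusted p = 0.0455, and 0.0386 with subline as a block), with ranges of 7.88 to 8.12 and 8.14 to 8.60. The call of CEP68 was kept in 9 of 22 alternatives. Its losses included those without any 1 selected array and without stable R3, R5 or R7 (adjusted p between 0.0699 and 0.117). It was also lost with both R7 arrays left out (no block) and with the block and the olfactory covariate together, where no gene was called.

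The centriole proteins POC1B and CEP70 rose by 0.58 (SE 0.11, adjusted p = 0.0113) and 0.50 (SE 0.10, adjusted p = 0.0142) over parental cells. For both, every selected array lay above every parental one, and stable R1 lay within the selected range. Each call was lost in 1 of 18 alternatives, that of POC1B in the fit of all 14 arrays (adjusted p = 0.0577) and that of CEP70 without parental 4 (0.45, adjusted p = 0.0592). AURKB, the kinase of the chromosomal passenger complex that monitors the end of cytokinesis, was the 1 proliferation gene called. Parental arrays read 10.29 to 10.66, selected arrays 9.79 to 10.18 and stable arrays 10.39 to 10.59. AURKB fell by 0.50 against parental cells (SE 0.10, adjusted p = 0.0133) and by 0.50 against stable cells (SE 0.08, adjusted p = 0.0154, and 0.0214 with subline as a block). The call against parental was lost without parental 4 (adjusted p = 0.0543), and the one against stable cells was lost in 3 of 22 alternatives, with both R7 arrays left out (0.0733), with median centring (0.0596) and with the block and the olfactory covariate together (0.456).

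**Figure D5:**
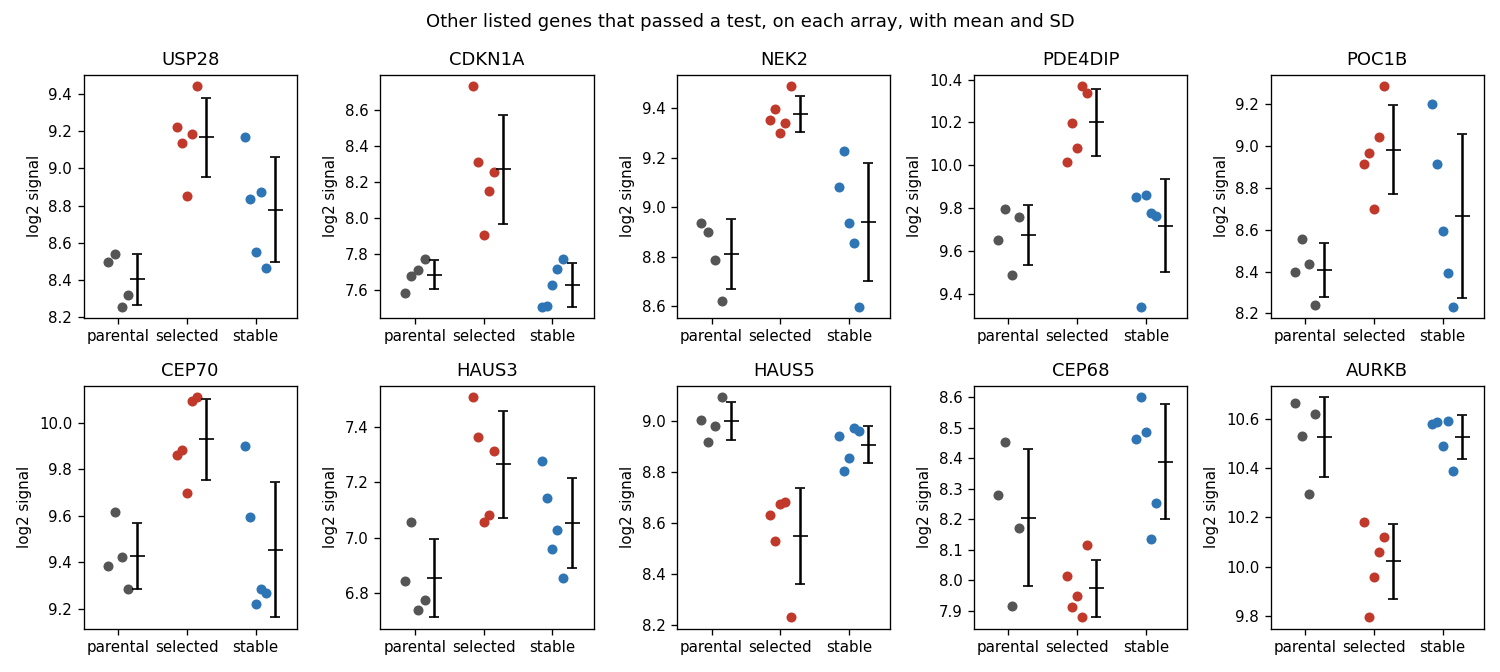
Log2 signal (vertical axes, each with its own range) of the 10 further pathway genes that passed in any comparison, on each array, with mean and SD of 4 parental, 5 selected and 5 stable arrays. CDKN1A, NEK2 and PDE4DIP have all selected points above all others, AURKB has them below, and USP28 spreads widely among the stable arrays (8.46 to 9.17).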

How the data were processed

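RNA of 4 parental, 5 selected and 5 stable samples was hybridised to Affymetrix whole-transcript arrays, per the labels. The deposited values are log2 signals (base taken from their range, 4.34 to 14.9). How the authors corrected background, normalized and summarised probes is not given in the sources here, which may affect any difference. The table's 32295 rows were named through the platform annotation and RefSeq (GRCh38.p14). Rows naming 1 gene (19148) gave 18398 genes, with the highest-mean row kept for 633 genes. Listed genes without a row of their own are not analysed here.

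All genes were fitted without a filter by limma 3.58.1 under R 4.3.3, with lmFit and a two-sided eBayes test, with Benjamini-Hochberg adjustment and a threshold of 0.05. Each comparison of groups used only its own arrays. Sublines against parental used all 14 arrays as 6 groups. No arrays were identical. Each comparison of groups was tested on simulated data for 18398 genes, with 50 genes changed by each of 0.3, 0.5, 0.75 and 1 log2. Noise was drawn independently for each gene and array, without shifts shared over an array or a subline. Recovery on the real arrays may differ for that reason, and with the share of genes changed. Recovery was 8%, 48%, 78% and 92% for selected against parental and 12%, 52%, 88% and 84% for stable against parental. For selected against stable it was 14%, 62%, 82% and 92%. The subline fits, the F test and the block were not simulated.

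Members, lists and the olfactory receptor measure were chosen with earlier results of these data known. Values on every array are given for called members, PLK4, STIL, SASS6, PIDD1, CRADD, CASP2 and KIFC1, and for the 4 smallest p of each comparison. Of other lists called genes are named, up to 4 per list and comparison. Members with notable arrays or unadjusted p were picked after their values were seen. Selected and stable arrays pair by subline, per the labels; paired deviations from group means correlated across genes by 0.636 (R1), 0.050 (R3), 0.372 (R5), 0.546 (R6) and -0.468 (R7). Alternatives were a dim-gene filter (mean signal below the 40th percentile), median centring, quantile normalization, the mean of a gene's rows, trended and robust variance, array weights, 1 fit of all arrays, the olfactory covariate, the subline block, and leaving out each array or both R7 arrays (with the block, a choice made after seeing the data).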

Additional observations from a re-analysis of the deposited data

Results flagged for a closer look

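Each of 44 genes (the 34 and the 10 further genes called) was checked in 3 groups for 1 array far from the others, by Dixon's ratio of the gap to the range at its 95% critical value. Of these 132 sets 4 had such an array, and chance gives about 1 in 20.

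CEP120, which supports centriole elongation, read 8.35 in selected R5 against 8.52 to 8.57 on the other 4 selected arrays (ratio 0.781). NEDD1 read 10.20 in stable R1 against 9.68 to 9.75 on the other stable arrays (ratio 0.854). CEP164, of the distal appendages, read 7.78 in selected R3 against 7.60 to 7.65. PDE4DIP read 9.34 in stable R3 against 9.76 to 9.86.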

How the results depend on the processing

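For selected against parental, 1273 genes were called. This was 800 with median centring, 2320 with the olfactory covariate, 621 without both R7 arrays and 517 to 1343 without single arrays. Quantile normalization gave 1716, array weights 1696 and the filter on dim genes 1291 of 11039 tested. Of the 34 genes 1 was called, and 2 with the filter on dim genes, 4 with quantile normalization, 3 with array weights, 7 with the olfactory covariate, 0 without R7 (limma, 8 at an unadjusted p under 0.05) and 0 to 3 without single arrays. For stable against parental, 1 gene of all was called, and 4 with the filter, 5 with trended and robust variance, 286 with array weights, 8 in the fit of all 14 arrays, 75 with the olfactory covariate and 1 to 26 without single arrays. For selected against stable, 397 were called, and 614 with quantile normalization, 81 with median centring, 1480 with array weights, 680 in the fit of all 14 arrays, 0 without R7 (limma, 1756 at an unadjusted p under 0.05) and 86 to 962 without single arrays. With subline as a replicate block 906 were called, with the block and the olfactory covariate 0 (limma, 1309 unadjusted) and with the block and without R7 159. Array weights called 1 of the 34 genes in this comparison, CEP97. The block changed, among the genes named, the call of NEK2 (0.0495) and no other.

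In at least 1 subline 41 genes were called against parental, and 62 with quantile normalization, 14 with median centring, 115 with the olfactory covariate, 399 in fits of each subline and the parental arrays alone and 13 to 32 without single parental arrays. Between sublines 22 were called, 584 with trended and robust variance, and 0 by limma with quantile normalization (2500 unadjusted), median centring (2632) or the olfactory covariate (798). None of the 34 genes was called in these 2 analyses in any alternative run. Of single-gene results under all alternatives 2438 kept their side of the threshold, 34 gained and 65 lost a call, and none called changed sign. The cause of these changes was not tested. The number of arrays limits precision: in simulation most changes of 0.3 were missed, so a gene not called here may still differ by that much.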
